A study of Homo sapiens with 8 samples.

Results

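The MYC, MAX and MXD network is a set of 10 human genes, MYC, MAX, MXD1, MXD3, MXD4, MXI1, MNT, MGA, MLX and MLXIP, chosen by symbol from the 57992 genes of the deposited count table; all 10 were found and all 10 passed the filter on low counts that kept 18314 genes for testing. RNA was sequenced from 2 acute myeloid leukaemia cell lines, each in 10 mM dG and in PBS, the vehicle. The 8 libraries were 2 of U937 in dG, 2 of U937 in PBS, 2 of KG1A in dG and 2 of KG1A in PBS. KG1A is a line with immature, CD34-bearing cells and U937 is a line with monocyte-lineage features. The length of the treatment is not given in the labels, each line is 1 established line, and the labels do not say whether replicates were separate cultures. The p-values therefore reflect the spread of these samples alone, and that spread may be technical.

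MYC drives growth and division by binding DNA as a dimer with MAX, mainly at sites called E-boxes. MXD1, MXD3, MXD4, MXI1 and MNT compete for MAX and recruit SIN3 and histone deacetylases, so the balance between MYC and these proteins sets the activity of shared target genes, and MYC falls while MXD proteins rise as blood cells mature. MGA pairs with MAX inside a Polycomb complex, and MLX is the partner of MLXIP (also called MondoA), which senses glucose phosphates and activates TXNIP.

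Library totals ran from 21053724 to 31135338 counts, and replicates of a group correlated at 0.9951 to 0.9963 over log2 CPM. They were not copies, since their counts differed beyond sampling noise in each group (chi-square of 1.72 to 2.1 per gene). CPM here means counts per 1000000 counts of a library after TMM scaling, a factor per library that corrects for composition. The summed level of 5 immature markers of KG1A was 0.948 to 1.36 CPM in U937 in dG and 0.784 to 0.956 CPM in U937 in PBS, against 1400 CPM in KG1A in dG and 1080 to 1090 CPM in KG1A in PBS. The summed level of 8 markers of U937 was 1250 to 1270 CPM in U937 in dG and 790 to 793 CPM in U937 in PBS, against 0.847 to 1.1 CPM in KG1A in dG and 0.217 to 0.308 CPM in KG1A in PBS. Its members did not move alike in U937. LYZ (221.6 CPM in dG and 23.7 CPM in PBS), AZU1 (332.5 and 151.8) and CD4 (440.8 and 265) were higher in dG. PRTN3 was lower, at 96.8 CPM in dG and 196.8 CPM in PBS. CSF1R was low in U937, at 1.44 CPM in dG and 1.63 CPM in PBS. MPO, a granule enzyme in that list, was near 0 in U937 too, at 0.0862 CPM in dG and 0.162 CPM in PBS. All 5 erythroid markers were at 0 except ALAS2, at 0.0485 CPM in 1 U937 library in dG. The 6 lymphoid markers summed to 5.24 to 6.51 CPM in U937 in dG and 7.87 to 8.13 CPM in PBS, against 122 to 126 CPM in KG1A in dG and 105 to 107 CPM in PBS, mostly CD3D, and 6 epithelial and fibroblast markers reached at most 4.61 CPM. The part that the changes in these markers play in the results was not tested, and in bulk RNA fewer cells of a kind and less RNA per cell cannot be told apart.

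In U937, MYC mRNA fell strongly in dG and the other 9 genes of the network rose, most of all MXD1 and MXD4. In KG1A the fall of MYC was small, MAX, MXD1, MXD3, MGA and MLXIP rose, MLX fell, and MXD4, MXI1 and MNT did not pass the test. All 10 genes passed in U937 (9 higher and 1 lower; 9 passed in the 5 alternatives that lost MLX, named with that gene), where 64.0% of all genes tested passed, 32.4% higher and 31.5% lower. In KG1A 7 of the 10 passed (5 higher and 2 lower), where 49.1% of all genes passed, 29.6% higher and 19.6% lower. A gene passed at an edgeR adjusted p under 0.05 over all genes tested, with no minimum fold change. The median log2 fold change of the 10 genes was 0.39 in U937, beside 0 over all genes, and 0.09 in KG1A, beside 0.04 over all genes. At a change of at least 2-fold, 3 of the 10 passed in U937, MXD1 and MXD4 as higher and MYC as lower, beside 17.4% of all genes (9.71% higher and 7.74% lower). In KG1A MXD3 passed at that size, as higher, beside 6.79% of all genes (5.64% higher and 1.15% lower). Under the alternatives the log2 fold change ran from 0.73 to 1.03 for MXD3 in KG1A and from 0.84 to 1.40 for MXD4 in U937. Both ranges reached below 2-fold, while those of MYC and MXD1 in U937 did not.

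**Figure D1:**
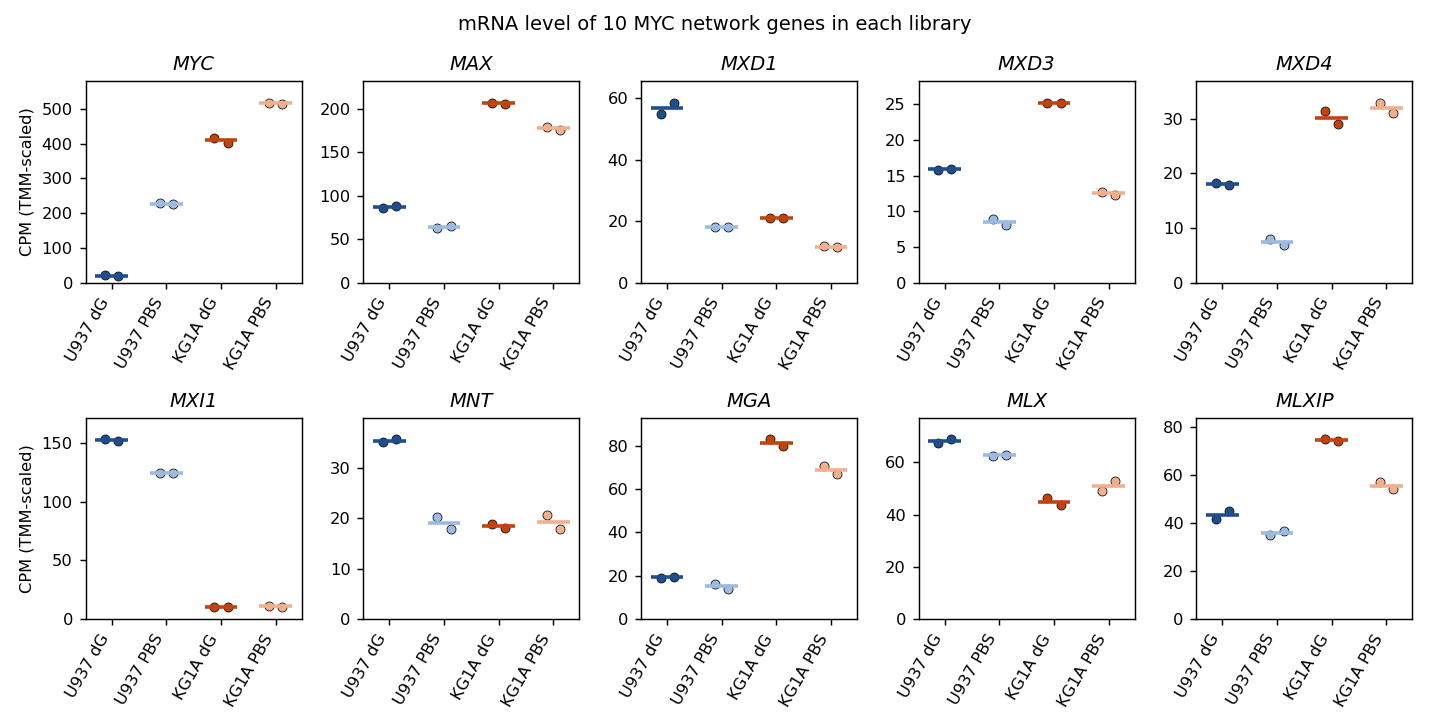
Level of each of the 10 genes in every library, in CPM after TMM scaling on axes that start at 0, with 1 panel per gene. Points are libraries and bars are group means over 2 libraries. MYC sits at 19.1 and 20.8 CPM in U937 in dG and between 226 and 518 CPM in the other 6 libraries.

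MYC (ENSG00000136997, hg38 chromosome 8, 127735434 to 127741434, plus strand) encodes the growth-promoting factor of the network. In U937 it measured 20.8 and 19.1 CPM in dG, against 227.9 and 226.4 CPM in PBS. In KG1A it measured 415.7 and 402.2 CPM in dG, against 517.8 and 512.8 CPM in PBS. The dG libraries lay below the PBS libraries in both lines, and the 4 groups did not overlap, with U937 in dG far below the rest. The log2 fold change was -3.51 ± 0.05 (SE) in U937 (adjusted p = 2.33e-36), a level 0.0879 times that in PBS, and 1.32% of all genes tested had an absolute change at least as large. In KG1A it was -0.33 ± 0.03 (adjusted p = 3.6e-11), a level 0.794 times that in PBS, and 44.0% of genes had a change at least as large. The effect in U937 minus that in KG1A was -3.17 ± 0.06 on the log2 scale (adjusted p = 4.61e-31).

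MAX (ENSG00000125952, chromosome 14, 65006174 to 65102695, minus strand) encodes the shared partner of MYC, the MXD proteins, MNT and MGA. It measured 86.2 and 88.1 CPM in dG, against 62.4 and 65.6 CPM in PBS, in U937. In KG1A it measured 206.9 and 205 CPM in dG, against 178.7 and 175.7 CPM in PBS. MAX thus rose in both lines without overlap, by 0.45 ± 0.04 in U937 (adjusted p = 1.88e-11) and by 0.22 ± 0.04 in KG1A (adjusted p = 3.4e-06), and the difference of 0.23 ± 0.06 passed (adjusted p = 0.000853). MAX levels ran in the order KG1A in dG, KG1A in PBS, U937 in dG and U937 in PBS.

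MXD1 (ENSG00000059728, chromosome 2, 69897688 to 69942945, plus strand), a repressor known to be induced as myeloid cells mature, rose in both lines. U937 libraries measured 54.9 and 58.6 CPM in dG, against 17.9 and 18.1 CPM in PBS. KG1A libraries measured 20.9 and 21.1 CPM in dG, against 12 and 11.5 CPM in PBS. The 4 groups did not overlap, and U937 in dG was the highest. The log2 fold change was 1.66 ± 0.06 in U937 (adjusted p = 5.72e-23) and 0.84 ± 0.08 in KG1A (adjusted p = 1.73e-11), with a difference of 0.81 ± 0.10 (adjusted p = 2.47e-08). MXD1 shares 237 exon bases with SNRNP27 on the same strand, which averaged 36.6 CPM in dG and 30 CPM in PBS in U937, and 19.6 CPM in dG and 21.1 CPM in PBS in KG1A.

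MXD3 (ENSG00000213347, chromosome 5, 177301461 to 177312757, minus strand), an MXD member linked to proliferating cells, also rose in both lines. U937 libraries had 15.8 and 15.9 CPM in dG, against 8.84 and 8.01 CPM in PBS. In KG1A both dG libraries measured 25.2 CPM, against 12.7 and 12.3 CPM in PBS. The groups did not overlap, and the log2 fold change was 0.91 ± 0.09 in U937 (adjusted p = 7.08e-11) and 1.02 ± 0.08 in KG1A (adjusted p = 1.54e-13). The difference between lines, -0.11 ± 0.12 (95% interval -0.36 to 0.14), did not pass (adjusted p = 0.514). Of the exon bases of MXD3, 40.4% are shared with RAB24 on the same strand or PRELID1 on the opposite one, and the strand setting of the counting is not given, so reads of these genes may be mixed. PRELID1 moved the other way, by -0.62 ± 0.06 in U937 and -0.68 ± 0.06 in KG1A, and RAB24 averaged 4.61 CPM in dG and 2.9 CPM in PBS in U937, and 1.98 CPM in dG and 1.48 CPM in PBS in KG1A.

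MXD4 (ENSG00000123933, chromosome 4, 2247432 to 2262294, minus strand), another MAX-binding repressor of the family, rose in U937. MXD4 stood in U937 at 18.1 and 17.9 CPM in dG, against 7.93 and 6.81 CPM in PBS. MXD4 stood in KG1A at 31.4 and 29 CPM in dG, against 32.9 and 31 CPM in PBS. The groups were apart in U937 and overlapped in KG1A, where all 4 libraries exceeded those of U937. The log2 fold change was 1.28 ± 0.09 in U937 (adjusted p = 1.62e-14) and -0.08 ± 0.07 in KG1A (95% interval -0.21 to 0.06, adjusted p = 0.359), with a difference of 1.36 ± 0.12 (adjusted p = 2.6e-12).

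MXI1 (ENSG00000119950, chromosome 10, 110207605 to 110287365, plus strand) encodes the repressor also called MXD2. Levels of MXI1 in U937 were 153 and 151.3 CPM in dG, against 124.1 and 124.4 CPM in PBS. Levels of MXI1 in KG1A were 10.6 and 10.5 CPM in dG, against 11.6 and 10.2 CPM in PBS. All 4 U937 libraries stood above all 4 KG1A libraries, and the KG1A groups overlapped. The log2 fold change was 0.29 ± 0.04 in U937 (adjusted p = 7.17e-08) and -0.03 ± 0.09 in KG1A (95% interval -0.21 to 0.14, adjusted p = 0.801). The difference of 0.33 ± 0.10 passed (adjusted p = 0.00513), but without KG1A PBS replicate 1 it did not (adjusted p = 0.0998, the highest of a range that starts at 0.000115).

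MNT (ENSG00000070444, chromosome 17, 2384060 to 2401118, minus strand), a MAX partner that most cell types express and that restrains MYC, rose in U937. MNT had in U937 35 and 35.6 CPM in dG, against 20.3 and 17.9 CPM in PBS. MNT had in KG1A 18.8 and 18.1 CPM in dG, against 20.6 and 17.8 CPM in PBS. U937 in dG stood above the other 6 libraries, which overlapped one another. The log2 fold change was 0.88 ± 0.07 in U937 (adjusted p = 3.94e-13) and -0.05 ± 0.08 in KG1A (95% interval -0.21 to 0.12, adjusted p = 0.687), with a difference of 0.92 ± 0.11 (adjusted p = 5.05e-09).

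MGA (ENSG00000174197, chromosome 15, 41621224 to 41773081, plus strand) encodes a large protein with a second DNA-binding domain of the T-box kind. U937 values of MGA were 19.2 and 19.4 CPM in dG, against 16.2 and 14.1 CPM in PBS. KG1A values of MGA were 82.9 and 79.9 CPM in dG, against 70.4 and 66.8 CPM in PBS. MGA rose without overlap in both lines, by 0.34 ± 0.08 in U937 (adjusted p = 0.000258) and by 0.25 ± 0.05 in KG1A (adjusted p = 5.38e-05). The KG1A call was lost in the 3 fits to RPKM values (adjusted p = 0.0765 to 0.168), the cause of which was not tested. The difference, 0.09 ± 0.09 (95% interval -0.10 to 0.28), did not pass (adjusted p = 0.476).

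MLX (ENSG00000108788, chromosome 17, 42567068 to 42573239, plus strand) moved least of the 10 in U937. In U937 it measured 67.2 and 68.8 CPM in dG, against 62.5 and 62.9 CPM in PBS. In KG1A it measured 46.4 and 43.6 CPM in dG, against 49 and 52.7 CPM in PBS. The dG libraries were higher in U937 and lower in KG1A, without overlap. The log2 fold change was 0.12 ± 0.05 in U937 (adjusted p = 0.0371) and -0.18 ± 0.05 in KG1A (adjusted p = 0.00477), and the difference of 0.30 ± 0.07 passed (adjusted p = 0.000871). The U937 call was lost with library size alone (adjusted p = 0.465), upper-quartile scaling (0.183), a replicate block (0.0582), and without U937 PBS replicate 1 (0.144) or 2 (0.132), over a range of 0.000381 to 0.465. The KG1A call was lost without KG1A PBS replicate 2 (0.158) or KG1A dG replicate 2 (0.0801), over a range of 9.52e-05 to 0.158. Of its exon bases, 18.1% are shared with PSMC3IP on the opposite strand, which averaged 15.1 CPM in dG and 11 CPM in PBS in U937, and 12.6 CPM in dG and 11.7 CPM in PBS in KG1A.

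MLXIP (ENSG00000175727, chromosome 12, 122078722 to 122147347, plus strand), the glucose-sensing partner of MLX, rose in both lines. In U937 it measured 41.9 and 45 CPM in dG, against 35.1 and 36.7 CPM in PBS. In KG1A it measured 74.8 and 74.3 CPM in dG, against 57.2 and 54 CPM in PBS. The groups did not overlap, and the log2 fold change was 0.28 ± 0.06 in U937 (adjusted p = 6.2e-05) and 0.43 ± 0.05 in KG1A (adjusted p = 2.91e-09). The difference, -0.15 ± 0.08 (95% interval -0.30 to 0.00206), did not pass (adjusted p = 0.106).

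**Figure D2:**
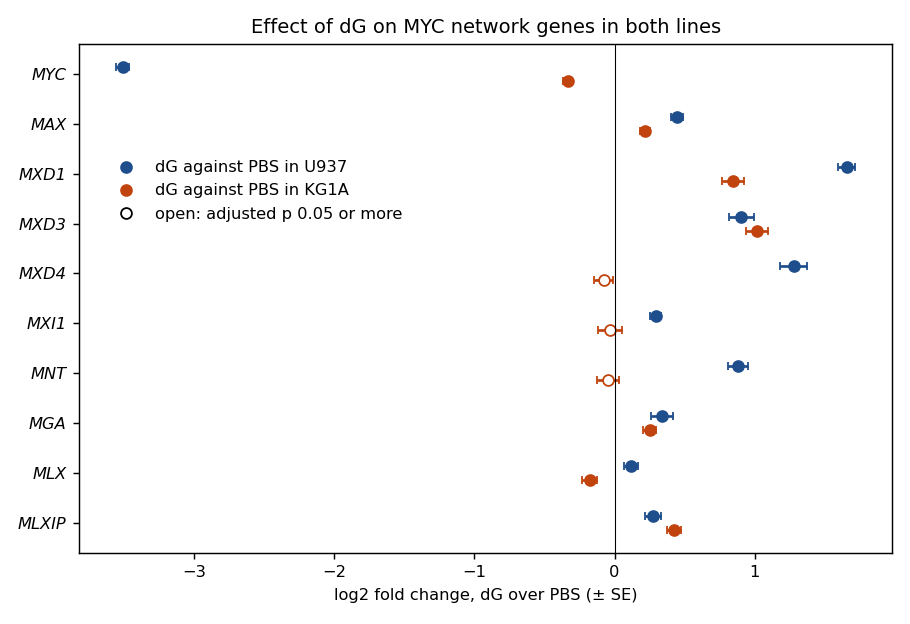
Log2 fold change of dG over PBS for each gene, with its standard error, in U937 (blue) and KG1A (orange). Filled points passed an adjusted p of 0.05 and open ones did not. MYC lies far to the left in U937 and near 0 in KG1A, at -3.51 and -0.33, while MXD1 and MXD3 lie to the right in both lines.

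The effects of dG differed between the lines, the U937 effect minus the KG1A effect, for 7 of the 10 genes (6 higher and 1 lower), beside 44.1% of all genes tested (17.6% higher and 26.4% lower). The 6 were MAX, MXD1, MXD4, MXI1, MNT and MLX, and MYC was the lower one. At a difference of at least 2-fold, MXD4 passed as higher and MYC as lower, beside 11.1% of all genes (4.02% higher and 7.04% lower). On the log2 scale the MXD4 difference ran from 0.959 to 1.495 under the alternatives, a range that reached below 2-fold. Across all genes the difference had a median of -0.10, which was 0.009 without U937 dG replicate 1 and 0.0183 without U937 dG replicate 2. With the DESeq2 size factors the split of 3230 higher and 4843 lower calls became 4021 and 3898. In KG1A the split of 5413 higher and 3581 lower calls became 4471 and 4584 with upper-quartile scaling. No value of the 10 genes that passed changed sign under another scaling, but the MLX call in U937 was lost with library size alone and with upper-quartile scaling. Genes that rose in both lines numbered 5 of the 10 (MAX, MXD1, MXD3, MGA and MLXIP), beside 15.4% of all genes, and MYC was lower in both, as were 13.1% of all genes. MLX passed in opposite directions, as did 7.44% of all genes, but its call was lost in 5 alternatives in U937 and in 2 in KG1A. These comparisons do not share samples between lines.

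Promoter sequences from RefSeq (assembly GRCh38.p14) were scanned for 9 of the genes, and that of MYC was left out. Shown are sequences of the 2 repressors that rose in both lines and of the 3 scanned genes whose promoter holds the canonical E-box, CACGTG. Each runs 250 bases up to the start annotated in RefSeq, on the gene's own strand. Capitals mark CACGTG, which reads the same on both strands. For MXD1 the window lies wholly inside the gene span given above, so that start differs from the start of the counted span. The windows are chr2:69914859-69915108 (plus) for MXD1, chr5:177312753-177313002 (minus) for MXD3, chr4:2262110-2262359 (minus) for MXD4, chr17:2401061-2401310 (minus) for MNT and chr17:42566850-42567099 (plus) for MLX.
MXD1: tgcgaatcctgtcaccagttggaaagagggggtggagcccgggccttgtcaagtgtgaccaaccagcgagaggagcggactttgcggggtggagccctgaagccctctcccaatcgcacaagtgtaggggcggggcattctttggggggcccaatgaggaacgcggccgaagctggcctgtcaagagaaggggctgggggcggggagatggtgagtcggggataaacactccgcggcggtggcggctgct
MXD3: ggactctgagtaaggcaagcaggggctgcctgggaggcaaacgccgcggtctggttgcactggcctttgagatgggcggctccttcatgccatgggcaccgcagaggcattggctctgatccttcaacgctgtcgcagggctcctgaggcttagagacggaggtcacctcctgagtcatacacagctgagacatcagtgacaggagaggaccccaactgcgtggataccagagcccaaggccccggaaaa
MXD4: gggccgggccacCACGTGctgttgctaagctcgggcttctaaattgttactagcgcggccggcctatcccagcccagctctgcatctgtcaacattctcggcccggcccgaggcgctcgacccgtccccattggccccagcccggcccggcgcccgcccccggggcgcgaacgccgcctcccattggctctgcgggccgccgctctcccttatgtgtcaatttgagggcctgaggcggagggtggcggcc
MNT: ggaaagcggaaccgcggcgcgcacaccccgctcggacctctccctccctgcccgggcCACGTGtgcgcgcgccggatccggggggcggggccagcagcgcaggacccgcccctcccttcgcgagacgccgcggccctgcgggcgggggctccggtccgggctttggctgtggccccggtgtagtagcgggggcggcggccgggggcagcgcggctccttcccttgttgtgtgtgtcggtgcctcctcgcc
MLX: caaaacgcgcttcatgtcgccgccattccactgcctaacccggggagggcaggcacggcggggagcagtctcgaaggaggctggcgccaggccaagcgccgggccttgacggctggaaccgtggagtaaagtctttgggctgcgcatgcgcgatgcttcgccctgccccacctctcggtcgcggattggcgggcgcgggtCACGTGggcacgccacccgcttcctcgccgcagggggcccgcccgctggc
The motif began at -238 for MXD4, -193 for MNT and -50 for MLX, counted from the base before the start as -1. It was present in 3 of the 14 promoters scanned for the 9 genes other than MYC, and in 2228 of 35116 promoters of that length, 6.34%. A match describes letters and not a bound site. The 3 genes with the motif differed in their changes: in U937 their log2 fold changes were 1.28, 0.88 and 0.12, and in KG1A -0.08, -0.05 and -0.18, for MXD4, MNT and MLX.

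Between the lines in PBS, 9 of the 10 genes differed (3 higher and 6 lower in U937), beside 82.3% of all genes tested (41.4% higher and 40.8% lower). MXI1 had the largest difference of the 10, with 124.3 ± 0.206 CPM in U937 and 10.9 ± 1.03 CPM in KG1A (SD, n = 2 each), a log2 difference of 3.52 ± 0.06 (adjusted p = 2.52e-35) and 11.5-fold. MXD1 was higher by 0.62 ± 0.08 and MLX by 0.30 ± 0.05 in U937. MGA was lower in U937 by a log2 difference of -2.16 ± 0.06, MXD4 by -2.10 ± 0.08, MAX by -1.47 ± 0.04, MYC by -1.18 ± 0.03, MLXIP by -0.63 ± 0.05 and MXD3 by -0.56 ± 0.09. At least 2-fold differences were found for 5 of the 10, MXI1 as higher and MYC, MAX, MXD4 and MGA as lower in U937, beside 43.9% of all genes (22.7% higher and 21.2% lower). MNT, at 0.01 ± 0.08 (95% interval -0.15 to 0.17), did not pass (adjusted p = 0.905).

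Levels between genes can be compared per exon length, in the authors' RPKM. The order depends on the total exon length used for each gene. That length includes the 40.4% of MXD3 and 18.1% of MLX exon bases shared with other genes, where reads may be mixed. In U937 in dG the order was MXI1, MAX, MLX, MXD1, MYC, MNT, MLXIP, MXD3, MXD4 and MGA, with MLXIP and MXD3 overlapping. In U937 in PBS it was MYC, MXI1, MLX, MAX, MXD1, MLXIP, MNT, MXD3, MXD4 and MGA, with MLX and MAX overlapping. MYC led the order in 3 of the 4 groups and stood in the middle of it in U937 in dG, at 6.83 ± 0.47 RPKM, against 74.6 ± 1.09 RPKM in PBS. In KG1A in dG the order was MYC, MAX, MLX, MLXIP, MXD3, MGA, MXD4, MXD1, MXI1 and MNT. In KG1A in PBS it was MYC, MAX, MLX, MXD4, MLXIP, MGA, MXD3, MXI1, MNT and MXD1, with MLXIP and MGA, MXD3 and MXI1, and MXI1 and MNT overlapping. MXD3 ranked above MXD4 in dG and below it in PBS in this line.

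**Figure D3:**
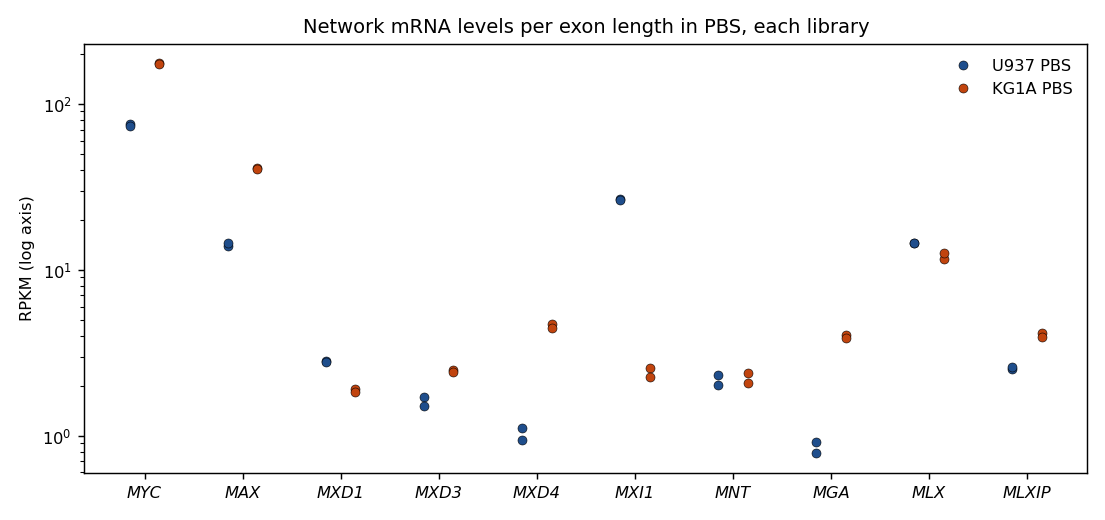
RPKM of each gene in the 4 PBS libraries, on a log axis, with U937 in blue and KG1A in orange. MXI1 lies at 26.6 RPKM in U937 and 2.4 RPKM in KG1A, while MAX lies at 14.2 RPKM in U937 and 40.7 RPKM in KG1A.

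Ratios taken inside each library, so free of scaling, give the balance of the mRNAs. Their values depend on the exon lengths used for RPKM. MYC per MAX was 0.36 and 0.32 in U937 in dG, against 5.39 and 5.10 in PBS. In KG1A it was 2.97 and 2.90 in dG, against 4.28 and 4.31 in PBS. MYC mRNA was thus below MAX mRNA in U937 in dG and above it in the other groups. MYC per the sum of MXD1, MXD3, MXD4, MXI1 and MNT was 0.134 and 0.123 in U937 in dG, against 2.17 and 2.19 in PBS. In KG1A the same ratio was 8.11 and 8.05 in dG, against 12.4 and 13.3 in PBS. This ratio was below 1 in U937 in dG and above 1 in the other 3 groups. That sum was 53.1 ± 0.325 RPKM in dG and 34.2 ± 0.693 RPKM in PBS in U937 (SD, n = 2 each), and 16.4 ± 0.339 RPKM in dG and 13.6 ± 0.721 RPKM in PBS in KG1A. Of the 4 MXD genes alone, MXI1 made up 69.4% in dG and 83% in PBS in U937, and 15.5% in dG and 21.2% in PBS in KG1A. The ratios are descriptions and no test was run on them.

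**Figure D4:**
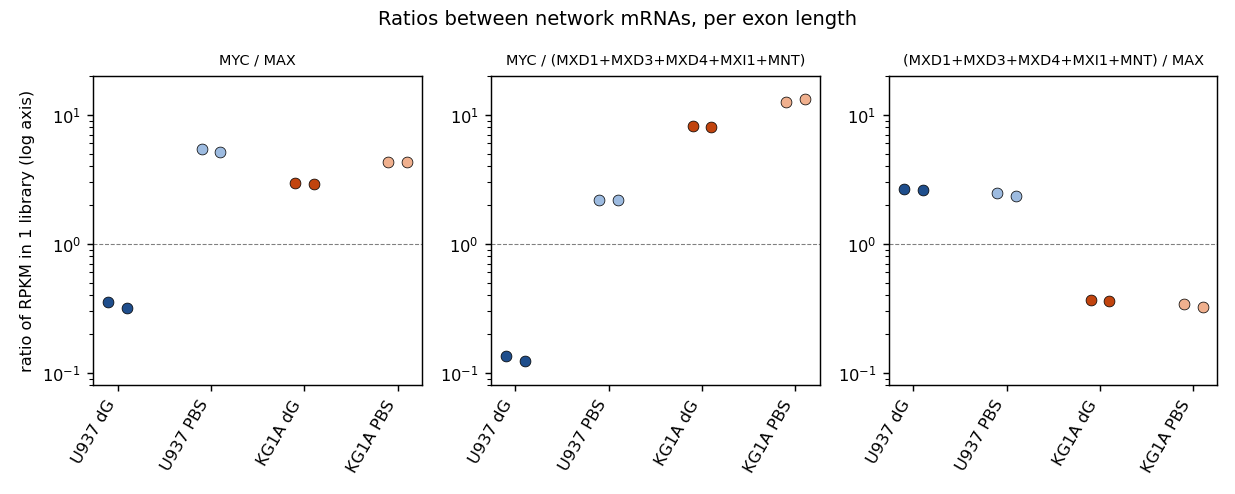
Ratios of RPKM inside each of the 8 libraries, on log axes with a dashed line at 1, for MYC over MAX, MYC over the sum of the MXD genes and MNT, and that sum over MAX. U937 in dG lies below the line in the first panel, at 0.36 and 0.32, and the other 6 libraries lie above it.

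Reads of MYCN came from KG1A, but for 1 read, and reads of MYCL from U937. MYCN, a paralog usually found in neural tissue, measured 27.5 and 25.4 CPM in KG1A in dG, against 16.8 and 15.4 CPM in PBS, a rise of 0.73 ± 0.08 (adjusted p = 1.4e-09). In U937 MYCN had 1 and 0 reads in dG and none in PBS, and 0 reads allow up to 0.0941 and 0.12 CPM in the PBS libraries (3 counts, counting error only). MYCL, the lung-cancer paralog, had no reads in KG1A and averaged 3.3 ± 0.0796 CPM in dG and 3.9 ± 0.508 CPM in PBS in U937, a change of -0.23 ± 0.17 that did not pass (adjusted p = 0.258). MLXIPL, the paralog of MLXIP, had 1 read over the 8 libraries together. In KG1A in dG, MYCN at 9.88 RPKM lay under MYC at 132.3 RPKM.

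Among the genes whose pattern over the 8 libraries lay nearest to that of MYC, by the root mean square difference of centred log2 CPM among 8791 genes, were MIR17HG (0.395), PRMT6 (0.445), FAM86C1 (0.457) and DNAAF3 (0.493). MIR17HG hosts the miR-17-92 cluster and PRMT6 is an arginine methyltransferase. MIR17HG averaged 0.934 CPM in dG and 7.42 CPM in PBS in U937, and 12.6 CPM in dG and 17.6 CPM in PBS in KG1A. These 4 genes were picked for likeness to MYC over the same 8 libraries, so changes like those of MYC follow from the choice. Their log2 fold changes ran from -3.38 to -2.37 in U937 and from -1.01 to -0.27 in KG1A. The KG1A calls were lost in 7 of 19 alternatives for DNAAF3 and in 1 each for MIR17HG and PRMT6.

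Known targets were read from lists of textbook genes, which were chosen with earlier results of these data known. Counts from these lists are descriptions. Of 30 genes known to be activated by MYC, 2 rose and 27 fell in U937, where 32.4% of all genes rose and 31.5% fell, with a median log2 fold change of -0.83 beside 0 over all genes. In KG1A 4 rose and 24 fell, where 29.6% of all genes rose and 19.6% fell, with a median of -0.35 beside 0.04. The largest falls in U937 were TERT (telomerase, -2.37), BOP1 and FBL (ribosome assembly, -2.32 and -1.69) and ODC1 (polyamine synthesis, -1.60), and in KG1A they were TFRC (transferrin receptor, -1.39), ODC1 (-1.16), SRM (-0.96) and MYBBP1A (-0.89). The 4 that rose in KG1A, named here after their values were seen, were CCND2 (0.47), SHMT2 (0.45), TERT (0.40, adjusted p = 0.0455, lost in 15 of 19 alternatives with adjusted p up to 0.503) and E2F1 (0.25). ODC1 averaged 110.2 CPM in dG and 334.5 CPM in PBS in U937, and 163.6 CPM in dG and 365 CPM in PBS in KG1A. EIF4A1, 1 of the 2 that rose in U937, had only 9.49 CPM in dG and 4.02 CPM in PBS and shares 48.6% of its exon bases with other genes, so its count is uncertain. The difference of effects passed for 3 genes as higher and 21 as lower, beside 17.6% and 26.4% of all genes, with a median of -0.45 beside -0.10 over all genes.

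Genes that MYC represses together with MIZ1 gave 6 tested of 7 listed. In U937 5 rose and 1 fell, with a median of 0.56 beside 0, and in KG1A 5 rose and none fell, with a median of 0.74 beside 0.04. Over all genes 32.4% rose and 31.5% fell in U937, and 29.6% rose and 19.6% fell in KG1A. In KG1A CDKN2B (0 reads on average in dG and 0.5 in PBS) and CDKN1C (12.5 in dG and 2 in PBS) were in the test through U937, and without them 4 of 4 rose, with the same median. CDKN1A, the p21 cell cycle inhibitor, averaged 22.8 CPM in dG and 3.08 CPM in PBS in U937 (2.88 ± 0.12), and 3.61 CPM in dG and 0.921 CPM in PBS in KG1A (1.98 ± 0.22). NDRG1, a stress and differentiation gene, was the one that fell in U937, by 0.39 on the log2 scale, and it rose by 0.83 in KG1A. Of 3 targets of MLXIP and MLX, 2 rose in U937, with a median of 1.6 beside 0. The third, ARRDC4, was hardly read there and is left out of that median. In KG1A 3 rose (median 1.00 beside 0.04). TXNIP, the inhibitor of thioredoxin, measured 384.5 and 363.9 CPM in dG, against 111.4 and 111.5 CPM in PBS in U937. In KG1A TXNIP measured 299.7 and 294.1 CPM in dG, against 121.3 and 124.7 CPM in PBS. Its log2 fold change was 1.75 ± 0.04 in U937 (adjusted p = 5.81e-31) and 1.27 ± 0.04 in KG1A (adjusted p = 1.09e-25). KLF10 rose by 1.45 ± 0.05 in U937 and by 0.81 ± 0.05 in KG1A, and ARRDC4, a paralog of TXNIP, rose by 1.00 ± 0.08 in KG1A and had 1 read in each U937 library in dG and none in PBS.

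**Figure D5:**
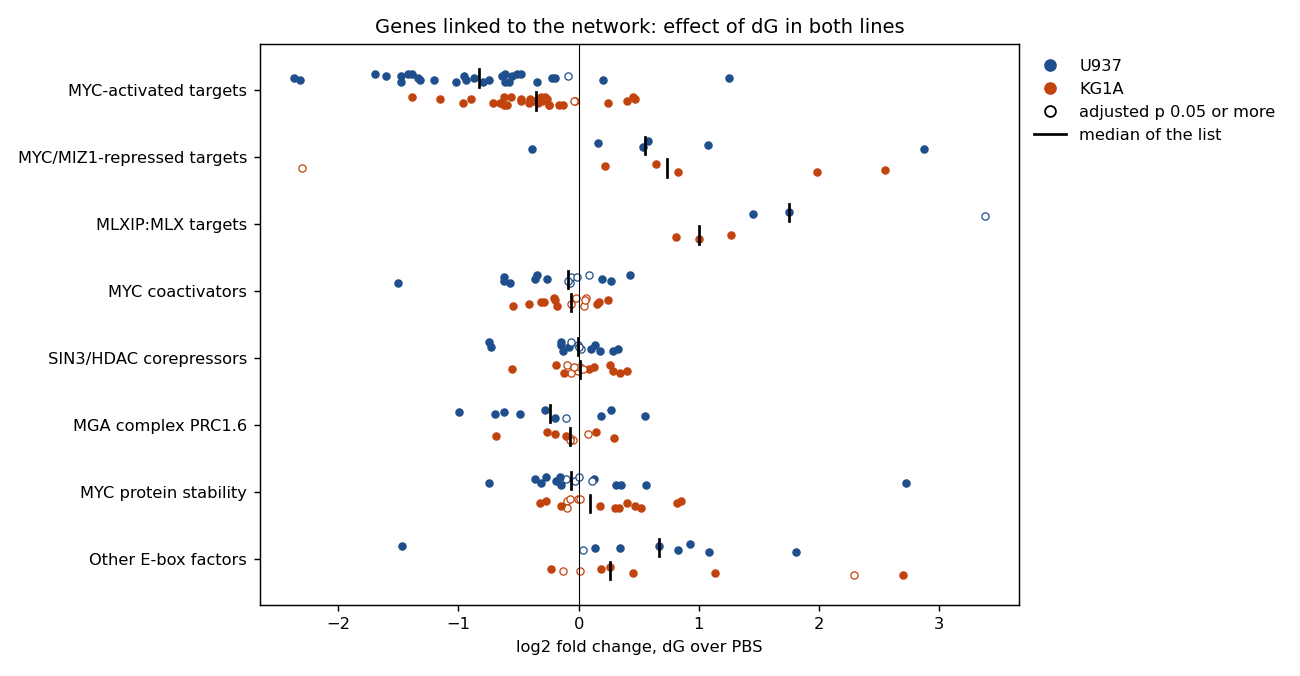
Log2 fold change of dG over PBS for every tested gene of 8 lists, in U937 (blue) and KG1A (orange), with the list median as a black line. Filled points passed an adjusted p of 0.05. The MYC-activated targets lie mostly left of 0 in both lines, with medians of -0.83 in U937 and -0.35 in KG1A.

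Cofactors were mixed, and their counts stand beside 32.4% higher and 31.5% lower over all genes in U937, and 29.6% higher and 19.6% lower in KG1A. Of 15 MYC coactivators and other partners, 3 rose and 7 fell in U937 (median -0.09 beside 0 over all genes). In KG1A 3 rose and 7 fell (median -0.06 beside 0.04). The list includes ZBTB17, which encodes MIZ1 and is not a coactivator, and which rose by 0.43 in U937. RUVBL1, an ATPase of chromatin complexes, fell to 0.353 times the PBS level in U937 and to 0.685 times in KG1A, and TRRAP, the scaffold of acetyltransferase complexes, fell by 0.37 on the log2 scale in U937 and by 0.29 in KG1A. Of 15 SIN3 and HDAC corepressor genes, 5 rose and 6 fell in U937 (median -0.00136) and 6 rose and 3 fell in KG1A (median 0.00914). HDAC2, a deacetylase, fell by 0.74 ± 0.03 in U937, and BRMS1, a SIN3-complex subunit, fell by 0.73 in U937 and by 0.55 in KG1A. ARID4B and ARID4A, DNA-binding subunits of SIN3 complexes, rose by 0.33 and 0.28 in U937 and by 0.40 and 0.35 in KG1A. Of 10 genes of the MGA Polycomb complex, 3 rose and 6 fell in U937 (median -0.24) and 2 rose and 4 fell in KG1A (median -0.07). PCGF6, its defining subunit, fell to 0.501 times the PBS level in U937 (adjusted p = 1.58e-12) and stood at 1.06 times in KG1A (adjusted p = 0.445), and L3MBTL2 fell by 0.70 in U937 and by 0.69 in KG1A. Of 16 genes that set the stability of MYC protein, 5 rose and 7 fell in U937 (median -0.07) and 8 rose and 3 fell in KG1A (median 0.10). The list pools genes that stabilize MYC with genes that promote its breakdown, so these counts say nothing on its stability. Among the latter, SKP2 fell by 0.75 in U937 and by 0.15 in KG1A. PPP2R5A rose by 0.56 in U937 and did not pass in KG1A (-0.09, adjusted p = 0.0605). PIM1, a kinase that stabilizes MYC, averaged 396.2 CPM in dG and 59.9 CPM in PBS in U937, and 419.4 CPM in dG and 302.3 CPM in PBS in KG1A, and USP28, a deubiquitinase of MYC, fell by 0.36 in U937 and rose by 0.86 in KG1A. MYC protein was not measured.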

How the data were processed

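RNA of 8 libraries was analysed from the deposited count table. Per the submitters' processing notes, bcl2fastq 2.18.0.12, TopHat2 and HTSeq 0.11.2 were used with the build hg38. The authors deposited whole-number counts per gene and, in a second table, RPKM values, which equal reads per kilobase of exon and per 1000000 TMM-scaled reads. Those TMM factors were taken over all genes of the table, and those of CPM here over the genes tested. Changes in RPKM and in CPM therefore differ somewhat. MYC in KG1A, for example, averaged 132.3 RPKM in dG and 174.7 RPKM in PBS, and 408.9 CPM in dG and 515.3 CPM in PBS. The annotation release, strand setting and treatment of multimapping reads are not given in the sources used here. The library kit, per the labels, is a Kapa mRNA kit.

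Counts were tested with edgeR 4.0.16 under R 4.3.3 (quasi-likelihood F test, two-sided, filterByExpr, TMM), with all 8 libraries in 1 model and 4 residual degrees of freedom. P-values were adjusted over 18314 genes by the method of Benjamini and Hochberg, at a threshold of 0.05. SE is the absolute log2 fold change over the root of F. The fit was tested on simulated data with known changes. Those data had 1 spread for all genes and, apart from the set changes, equal means in both lines. They were thus simpler than the data here, and the test checks the code alone. The common biological coefficient of variation was 2.51%. The 95% intervals of log2 differences come from the fitted SE and the t distribution, and the floor of 3 counts covers counting error only. The RPKM values were used for levels between genes and, with limma 3.58.1 on log2(RPKM + 1) or log2(RPKM + 0.1), as alternatives to the counts. Further alternatives were DESeq2 1.42.0, other scaling, no filter, a line alone, replicate blocks and leaving out each library.

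The members and the gene lists were chosen with earlier results of these data known. Named beside the 10 members were the MYC and MLX paralogs, up to 4 genes a list and line with the largest change past the threshold, and the 5 genes nearest to MYC over the 8 libraries where the average log2 CPM reached 2, of which 1 is not reported here. NDRG1 in U937, EIF4A1, PVT1, ZBTB17, single cell type markers and activated targets that rose in KG1A were named after their values were seen. Promoters came from RefSeq (GRCh38.p14). The deposited gene coordinates of the members equal those of GENCODE 29.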

Additional observations from a re-analysis of the deposited data

Results flagged for a closer look

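Effects of dG differed between the lines by the test of the difference itself, the U937 effect minus the KG1A effect on the log2 scale. For MYC the difference was -3.17, and for MAX 0.23. Among the repressors it was 0.81 for MXD1, 1.36 for MXD4, 0.33 for MXI1 and 0.92 for MNT. For MLX it was 0.30. MXI1 lost this call without KG1A PBS replicate 1.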

How the results depend on the processing

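Of the values of the 10 genes under the alternatives, 729 stayed on the same side of the threshold and 11 lost their call. No value that passed changed sign. Some values that did not pass did change sign, such as those of MNT (-0.16 to 0.05) and MXI1 (-0.14 to 0.05) in KG1A. The 11 lost calls were 5 for MLX in U937, 2 for MLX in KG1A, 3 for MGA in KG1A and 1 for the MXI1 difference, given beside those genes. With a replicate block the members called were 9 in U937, 7 in KG1A, 9 between the lines in PBS and 7 for the difference, and the genes called were 11529, 8742, 14962 and 7835. The labels do not say whether same-numbered libraries were paired. Their deviations correlated at 0.0224 in U937 and -0.149 in KG1A over 10767 genes, which cannot settle it. A crossed block in KG1A, chosen after seeing the data, gave 10, 7, 9 and 7 members and 11833, 9181, 15165 and 8247 genes. With log2(RPKM + 1) the split of calls was 4085 higher and 4202 lower in KG1A, and 5262 higher and 4204 lower for the difference. No scaling shifted the median of all genes by over 0.1 on the log2 scale in a single line. For the difference the median over all genes was -0.10, and it moved by 0.11 with the DESeq2 Wald test, by 0.12 with log2(RPKM + 1), by 0.15 with no filter, and by 0.11 and 0.12 without U937 dG replicate 1 or 2. Leaving out genes with under 10 reads on average in a line, chosen after seeing the data, changed the KG1A counts of the repressed targets and E-box factors, given beside them. For other named genes, 2062 values stayed, 14 gained and 46 lost a call. Depth limits low genes such as TERT in U937 in dG (12 reads on average).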

Other observations

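Other E-box factors of the same DNA-binding class were read as 9 genes. In U937 7 rose and 1 fell, with a median log2 fold change of 0.67 beside 0 over all genes, where 32.4% of all genes rose and 31.5% fell. In KG1A 5 rose and 1 fell, with a median of 0.26 beside 0.04, where 29.6% of all genes rose and 19.6% fell. TFEB (4 reads on average in dG and 0.5 in PBS) and MITF (0.5 in dG and 0 in PBS) were in the KG1A test through U937, and without them 4 of 7 rose and 1 fell, with a median of 0.19. MITF, known from pigment cells, mast cells and osteoclasts, averaged 45.8 CPM in dG and 13.1 CPM in PBS in U937, and had at most 1 read a library in KG1A. TFEB, a regulator of lysosomal genes, averaged 344.3 CPM in dG and 162.1 CPM in PBS in U937. TFEC, a related factor of myeloid cells, rose in both lines, to 126.8 CPM in dG against 71.4 CPM in PBS in U937 and to 158.2 CPM in dG against 72.3 CPM in PBS in KG1A. TFAP4, itself a MYC target, averaged 8.69 CPM in dG and 24.2 CPM in PBS in U937.

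Of 11 listed regulators of MYC transcription and mRNA, 8 were tested. In U937 2 rose and 4 fell (median -0.25 beside 0), and in KG1A 3 rose and 4 fell (median -0.15 beside 0.04). The shares over all genes were 32.4% higher and 31.5% lower in U937, and 29.6% higher and 19.6% lower in KG1A. HNRNPK, a binder of the MYC promoter, fell by 0.80 ± 0.03 in U937 and by 0.25 ± 0.03 in KG1A. PVT1, the noncoding neighbour of MYC, averaged 6.24 CPM in dG and 7.27 CPM in PBS in U937 (-0.21 ± 0.12, adjusted p = 0.135), and 15 CPM in dG and 17.1 CPM in PBS in KG1A (-0.18 ± 0.09, adjusted p = 0.0796). The changes of PVT1 did not pass, and they were not tested against that of MYC.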
